A study of Mus musculus with 9 samples.

Results

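The genes described here encode the proteins of glucose uptake, glycolysis, lactate handling and the pentose phosphate pathway, 38 genes of the 55471 gene identifiers in the count files. They were taken by name: 30 belong to glycolysis and lactate handling and 8 to the pentose phosphate pathway. Gene-level RNA counts were compared between 2 groups of mouse CD8+ T cells that carry OT-I, a transgenic T cell receptor for an ovalbumin peptide. The control group (Bdh1-WT;shCtrl, 4 libraries) had an intact Bdh1 gene and a hairpin against firefly luciferase. The other group (Bdh1-KO;shOxct1, 5 libraries), labelled DKO, was a Bdh1 knockout with a hairpin against Oxct1, so it is a knockout of one gene with a knockdown of the other. Bdh1 and Oxct1 encode enzymes of ketolysis, the use of ketone bodies as fuel, and the comparison asks what their loss does to these cells. Cells of both groups had been activated for 24 h with antibodies to CD3ε and CD28 and IL-2 at 50 U/mL, transduced, grown for 2 days more in IL-2 and sorted on the Ametrine reporter. They were then transferred into C57BL/6 hosts of the CD45.1 type, which kept their own immune cells and were infected 1 day later with LmOVA, a Listeria monocytogenes strain that carries ovalbumin. On day 7 of infection they were sorted again, from spleen, on CD45.2 and Ametrine. The labels do not give the age or sex of the mice, or whether the libraries of a group came from separate donors or hosts, so the p-values measure the spread between these libraries, which may be technical in part.

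As background, glycolysis splits glucose into pyruvate in the cytosol. Its lower part, from glyceraldehyde-3-phosphate dehydrogenase to pyruvate kinase, holds the steps that return ATP, at phosphoglycerate kinase and at pyruvate kinase. Activated T cells use the pathway heavily and pass much of its carbon to lactate, while the pentose phosphate pathway draws off glucose-6-phosphate to make NADPH and ribose. Several steps have more than 1 gene, and the isozymes differ in regulation and in the tissue where they prevail.

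Glycolytic genes are textbook targets of the hypoxia-inducible factors, which bind a core of ACGTG or GCGTG. The 250 bases upstream of 3 genes are shown with that core in capitals: Pgk1 and Eno3, the pair that passed the test described further on, and Gapdh, whose enzyme acts just before phosphoglycerate kinase. The sequences are from RefSeq (GRCm38.p6), 5′ to 3′ on the strand of the gene, at chrX:106186850-106187099 (plus strand), chr11:70656926-70657175 (plus strand) and chr6:125165774-125166023 (minus strand). On the printed strand, a core on the opposite strand reads CACGT or CACGC.
Pgk1: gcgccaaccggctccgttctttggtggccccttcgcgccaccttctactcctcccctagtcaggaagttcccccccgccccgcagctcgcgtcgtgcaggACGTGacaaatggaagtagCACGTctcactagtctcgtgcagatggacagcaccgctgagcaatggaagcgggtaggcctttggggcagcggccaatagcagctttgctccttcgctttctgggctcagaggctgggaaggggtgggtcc
Eno3: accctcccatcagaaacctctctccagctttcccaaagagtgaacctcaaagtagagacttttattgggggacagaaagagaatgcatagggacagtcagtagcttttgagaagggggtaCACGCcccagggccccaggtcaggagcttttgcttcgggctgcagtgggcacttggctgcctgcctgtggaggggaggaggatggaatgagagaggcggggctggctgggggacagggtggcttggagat
Gapdh: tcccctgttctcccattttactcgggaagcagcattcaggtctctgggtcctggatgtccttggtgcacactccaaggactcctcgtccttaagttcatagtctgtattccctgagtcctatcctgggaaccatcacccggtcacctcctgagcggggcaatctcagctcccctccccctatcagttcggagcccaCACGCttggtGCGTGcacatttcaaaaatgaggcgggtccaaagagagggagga
The core, on either strand, occurred 2 times in the Pgk1 window, 1 time in the Eno3 window and 2 times in the Gapdh window. Over the 37 members found by symbol in the RefSeq table, 39 of 55 windows held it (70.9%), against 12679 of 32851 windows of the same length over all genes (38.6%). The member windows were also richer in G and C, with a median of 57.2% against 52.4%. The palindrome CACGTG, the E-box of MYC and of the ChREBP family, contains the core and occurred in 5 of the 55 member windows (9.09%) and in 6.02% of all windows. These matches describe letters and not binding.

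The libraries held 45205993 to 59853080 counts in genes. Levels are given as CPM, counts scaled to the library total in genes with the library's scaling factor, and as a mean ± SD. Oxct1 averaged 63.2 ± 5.73 CPM in control (n = 4) and 5.16 ± 0.370 in DKO (n = 5), and Bdh1 at 30.5 ± 4.16 and 10.6 ± 1.24 CPM. The CD8 T cell markers, 7 of 7 above 1 CPM, summed to between 8640 and 11424 CPM in control and between 8472 and 9065 CPM in DKO. Mean levels were lower in DKO for 6 of the 7 and higher for 1. Groups did not overlap for Cd8b1 (2036 to 2648 CPM in control, 1550 to 1836 in DKO) or Cd3e (1101 to 1261 and 1036 to 1092 CPM). The sum of the myeloid list did not overlap between the groups, with 166 to 201 CPM in control and 116 to 127 CPM in DKO. Of its 12 genes, 8 exceeded 1 CPM, led by Ctss (81.2 and 51.3 CPM) and Itgam (58.9 and 38.1 CPM), which T cells also express, with Cd68 next (29.2 and 16.8 CPM). Mean levels were lower in DKO for 7 of the 12 genes and higher for 5, among them Lyz2 (2.43 and 5.85 CPM) and Csf1r (1.84 and 2.37 CPM), while Mpo, S100a8 and S100a9 stayed at or below 0.381 CPM. Cell cycle genes, 20 of 20 above 1 CPM, summed to between 1061 and 1244 CPM in control and between 1393 and 2108 CPM in DKO. Control replicate 1 stood apart from the other libraries in a way that followed transcript length, which is described at the end with the members it touched most. In bulk libraries such as these, fewer cells of a type and less RNA per cell cannot be told apart.

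For most genes of glucose breakdown the difference between the groups was small, and 2 of 36 tested members passed the test. Pgk1, which encodes phosphoglycerate kinase of somatic cells, fell to 43.7% of its control level, and Eno3, which encodes the beta subunit of enolase, fell to 65.9%. Fbp1 and Fbp2 were too low to be tested. Log2 changes are log2 fold changes, DKO minus control, from edgeR's quasi-likelihood test. Its p-values were adjusted over all 14918 tested genes (Benjamini-Hochberg), and an adjusted p under 0.05 passed. The 2 calls were both in the lower direction (5.56% of the members tested), where 2.83% of all tested genes passed in either direction and 1.51% passed as lower. An unadjusted p under 0.05 was reached by 5 members (13.9%), Pgk1, Eno3, Aldoc, Gapdh and Pfkfb2, against 16.0% of all tested genes. For 3 members (8.33%), Pgk1, Eno3 and Aldoc, no DKO library reached the CPM of any control library. Groups failed to overlap in one direction or the other for 8.71% of all tested genes. The median log2 fold change was -0.01 over the members and -0.01 over all tested genes. The median size of the change, without its sign, was 0.10 over the members and 0.18 over all tested genes. The genes behind these 2 medians were not matched for level or precision. Among the members the SE ran from 0.06 for Gpi1 (222 CPM in control) to 0.73 for Eno2 (0.206 CPM in control). For 23 of the 36 members the 95% interval of the log2 fold change lay within 0.5 of 0 on both sides, and for 7 it reached past 1 on one side or the other.

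**Figure D1:**
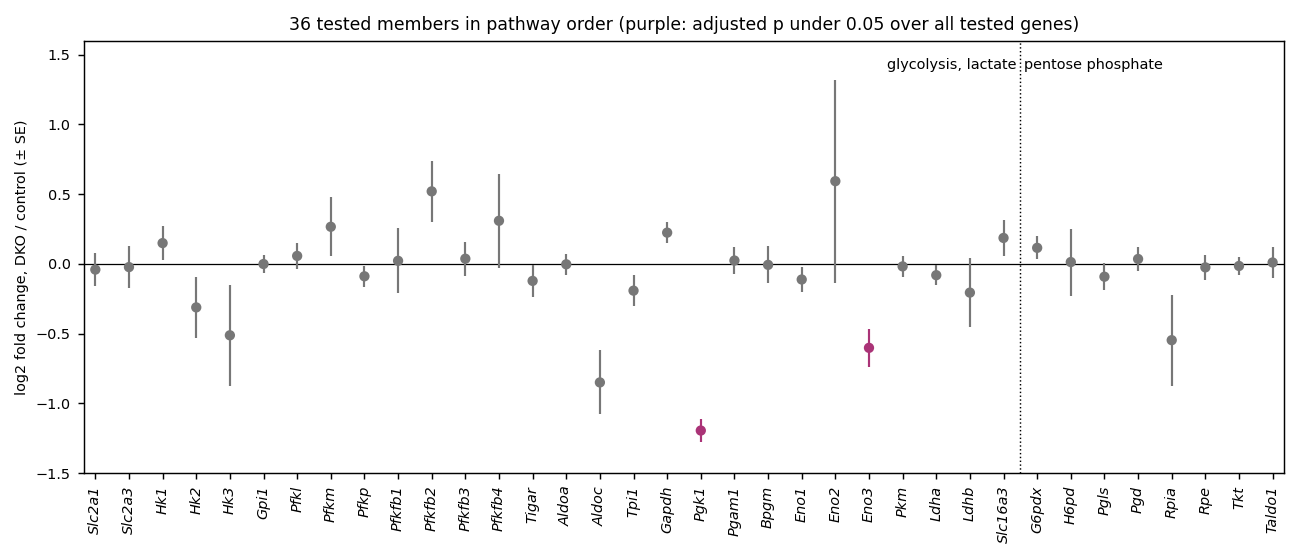
Log2 fold change of DKO over control (vertical axis) of the 36 tested members in pathway order (horizontal axis, with a dotted line between glycolysis with lactate and the pentose phosphate genes). Points are edgeR estimates and bars are ± SE; Pgk1 at -1.20 and Eno3 at -0.60, in purple, are the members past the adjusted threshold.

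Glucose enters T cells through transporters of the SLC2 family. Slc2a1, which encodes the ubiquitous carrier GLUT1, averaged 89.0 ± 15.8 CPM in control and 86.5 ± 6.56 in DKO (log2 change -0.04, SE 0.12, adjusted p 0.90). Slc2a3, which encodes the high-affinity carrier GLUT3, was at 187, 322, 329 and 314 CPM in the control libraries and at 315, 280.0, 267, 257 and 298 CPM in the DKO libraries. The low control value was that of replicate 1, and the log2 fold change was -0.02 (SE 0.15, adjusted p 0.958). Per kilobase of exon, the scale on which genes are compared with each other, Slc2a3 made up 60.7% of the pair in control and 61.3% in DKO.

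Hexokinases trap glucose as glucose-6-phosphate. Hk1, the constitutive isozyme, averaged 247 ± 46.0 CPM in control and 273 ± 18.9 in DKO (log2 change 0.15, SE 0.12, adjusted p 0.603). Hk2, the inducible isozyme that activation raises in T cells, was at 8.92 ± 2.83 and 7.19 ± 1.05 CPM (log2 change -0.31, SE 0.22, adjusted p 0.534). Hk3, an isozyme of myeloid cells, was at 0.923 ± 0.137 and 0.646 ± 0.349 CPM (log2 change -0.51, SE 0.36, adjusted p 0.535). The Hk3 interval ran from -1.37 to 0.34, so a change of 2-fold in the lower direction was not excluded at this depth, and DKO replicate 1, at 1.25 CPM, lay above every control library. Per kilobase, Hk1 held 93.8 to 95.1% of hexokinase RNA in control and 95.3 to 96.4% in DKO, and these ranges did not overlap. Gpi1, which encodes the isomerase that makes fructose-6-phosphate, was the steadiest gene of the upper pathway, at 222 ± 2.82 CPM and 222 ± 4.49 CPM, with an interval from -0.15 to 0.15.

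Phosphofructokinase commits the sugar to glycolysis. Pfkp, the platelet-type subunit, averaged 672 ± 42.8 CPM in control and 632 ± 41.0 in DKO (log2 change -0.09, SE 0.08, adjusted p 0.613). Pfkl, the liver-type subunit, was at 114 ± 8.70 and 119 ± 12.8 CPM, and Pfkm, the muscle-type subunit, at 7.42 ± 2.15 and 8.93 ± 1.52 CPM. The share of Pfkp within the trio, per kilobase, was 71.6 to 73.1% in control and 68.4 to 71.1% in DKO. None of the 3 subunit genes had an unadjusted p under 0.05, and the difference in share was not tested.

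Fructose-2,6-bisphosphate, the main activator of phosphofructokinase, is made and removed by the two-way enzymes of the Pfkfb genes and removed by the phosphatase of Tigar. Pfkfb2, which encodes an isozyme that phosphorylation activates, was at 1.82, 2.56, 1.55 and 1.42 CPM in control and at 2.31, 2.27, 2.71, 3.29 and 2.60 CPM in DKO. Control replicate 2 lay within the DKO values and the other control libraries below them. The log2 fold change was 0.52 (SE 0.22, unadjusted p 0.0352, adjusted p 0.27), which did not pass. Counting by strand gave 1.68 times as many reads at Pfkfb2 as the unstranded count, which leaves out reads where genes overlap. As the kit does not mark strand, the added reads cannot be assigned to Pfkfb2 rather than to an overlapping gene. Pfkfb3, which makes more activator than it removes, was at 27.4 ± 4.94 and 28.1 ± 1.45 CPM, and Tigar at 19.6 ± 2.74 and 18 ± 1.66 CPM. Pfkfb1 stood at 2.91 ± 0.990 and 2.96 ± 0.405 CPM, and Pfkfb4 at 1.49 ± 0.627 and 1.84 ± 0.655 CPM. The changes of these 4 genes had adjusted p from 0.662 to 0.975.

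Aldolase splits the 6-carbon sugar. Aldoa, by far the main isozyme here, averaged 430.2 ± 40.9 CPM in control and 429 ± 12.2 in DKO, with an interval of the log2 fold change from -0.18 to 0.18. Aldoc, the isozyme best known from brain, was at 5.63, 5.31, 4.27 and 4.92 CPM in control and at 3.46, 2.34, 2.80, 1.62 and 3.77 CPM in DKO. All 5 DKO libraries lay below all 4 control libraries, at a mean of 55.5% of control. The log2 fold change was -0.85 (SE 0.23, unadjusted p 0.0033), and the adjusted p of 0.082 missed the threshold. Over 16 alternatives to the test the adjusted p of Aldoc ran from 0.00879 to 0.173 and passed in 2, the DESeq2 Wald test and limma-voom. Per kilobase Aldoc was 1.03% of aldolase RNA in control and 0.578% in DKO. Tpi1, which encodes triosephosphate isomerase, was at 58.3 ± 8.36 and 51.1 ± 5.43 CPM (log2 change -0.19, SE 0.11, adjusted p 0.446).

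Gapdh, which encodes the dehydrogenase that feeds phosphoglycerate kinase, was at 252, 231, 212 and 233 CPM in control and at 265, 250, 271, 292 and 277 CPM in DKO. Only control replicate 1 reached into the DKO range. The log2 fold change was 0.22 (SE 0.08, unadjusted p 0.0132, adjusted p 0.167), which did not pass. It passed in 3 of 16 alternatives, with 1 surrogate variable (adjusted p 0.0161), in limma-voom (0.0318) and without control replicate 1 (0.0415). The value in DKO was 117% of control. Of the 50-base words in Gapdh transcripts, 25.1% also occur in another annotated gene, and only uniquely mapped reads were counted.

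Pgk1 (ENSMUSG00000062070.12, a protein-coding gene, chromosome X, plus strand, 106187100 to 106203699 in GRCm38) encodes the enzyme of the first ATP-yielding step. Its levels were 109, 120.2, 128 and 131 CPM in control and 53.2, 50.3, 57.0, 52.3 and 54.5 CPM in DKO. The highest DKO library was far below the lowest control library, and the spread within DKO was small. The log2 fold change was -1.20 (SE 0.08, 95% interval -1.39 to -1.01, adjusted p 3.13e-05), and 3 of all tested genes, with Pgk1 itself among them, had an adjusted p at or below this. In size the change was less exceptional: 398 of the 14918 tested genes had a log2 fold change at least as far from 0. That count takes in genes of any level and precision, whether or not they passed. It passed in 16 of 16 alternatives, with log2 fold changes from -1.26 to -1.16.

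**Figure D2:**
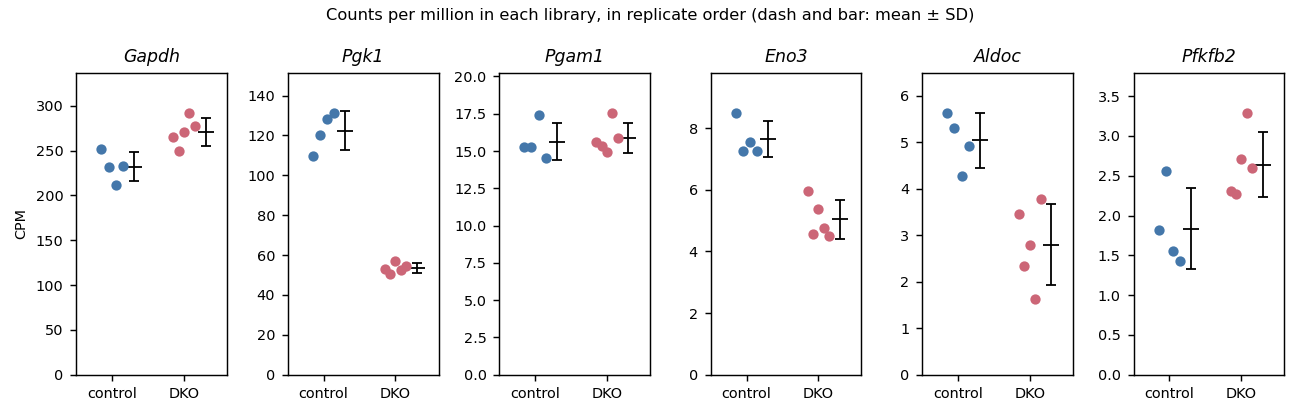
CPM of Gapdh, Pgk1, Pgam1, Eno3, Aldoc and Pfkfb2 (vertical axes, each from 0) in every control and DKO library. Points are libraries in replicate order, and dashes with bars are group means ± SD; the groups are apart for Pgk1, Eno3 and Aldoc and overlap for Gapdh, Pgam1 and Pfkfb2.

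The intervals of the genes on either side of Pgk1 in the pathway, 0.04 to 0.41 for Gapdh and -0.21 to 0.26 for Pgam1 (log2 fold change), lay apart from that of Pgk1. The ratio of Pgk1 to Gapdh, per kilobase, was 0.80 to 1.12 in the control libraries and 0.329 to 0.388 in the DKO libraries. The ratio of Pgk1 to Pgam1, whose enzyme acts next, was 6.34 to 7.98 in control and 2.63 to 3.36 in DKO. Pgam1 itself was at 15.6 ± 1.24 and 15.9 ± 1.01 CPM (log2 change 0.02, SE 0.10, adjusted p 0.934). Among the 38 members ranked by level per kilobase, Pgk1 went from the place 7 in control (54.5 CPM per kilobase) to the place 14 in DKO (23.8 CPM per kilobase).

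Pgk1 has near-identical copies, and 53.9% of its 50-base words occur in another annotated gene, nearly all of them (53.8%) in Pgk1-rs7. Reads that fit both equally are left out of counts of unique reads, so the counts of Pgk1 rest on the rest of its sequence. Levels, places and ratios per kilobase divide by the full exon length, so shared words can lower each gene to a different extent. The shares were 53.9% for Pgk1, 36.2% for Pgam1 and 25.1% for Gapdh. Pgk1-rs7 had 14 to 39 counts in a library, 0.673% of those of Pgk1, and changed by 0.08 on the log2 scale (adjusted p 0.928). The strand columns of Pgk1 summed to 1.00 times the unstranded count.

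Pgk1 lies on the X chromosome, and the groups differed in Xist, the RNA that silences 1 X chromosome in female cells. Counts of Xist were 17, 7, 0 and 3 in control and 652, 828, 610, 1210 and 537 in DKO, while the Y-linked genes Ddx3y, Eif2s3y, Kdm5d and Uty were near 0 in both groups. Over chromosome X, 15 of 471 tested genes passed (3.18%), 7 higher and 8 lower, against 2.82% on autosomes, and the median log2 fold change was -0.03 on X and -0.01 on autosomes. The other members on X moved little: G6pdx had a log2 fold change of 0.12 (SE 0.08) and Pfkfb1 of 0.02 (SE 0.23). Outside the members, the transketolase-like gene Tktl1, also on X, rose by 1.23 (SE 0.16, adjusted p 0.00289), as given further on. Of 48 annotated genes that start within 1 Mb of Pgk1, 9 were tested. Of these 9, 0 passed (2.83% of all tested genes) and 0 had an unadjusted p under 0.05 (16.0% of all). Groups failed to overlap for 0 of the 9 (8.71% of all), and with so few genes these counts are near the background. The log2 fold changes of the 9 ran from -0.19 for Cox7b to 0.48 for the low gene Gm14834, and the smallest adjusted p was 0.374 for Taf9b. Taf9b, the nearest tested neighbour, averaged 78.9 ± 8.61 CPM in control and 88.5 ± 2.64 in DKO. The part of Xist in the change of Pgk1 was not tested.

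**Figure D3:**
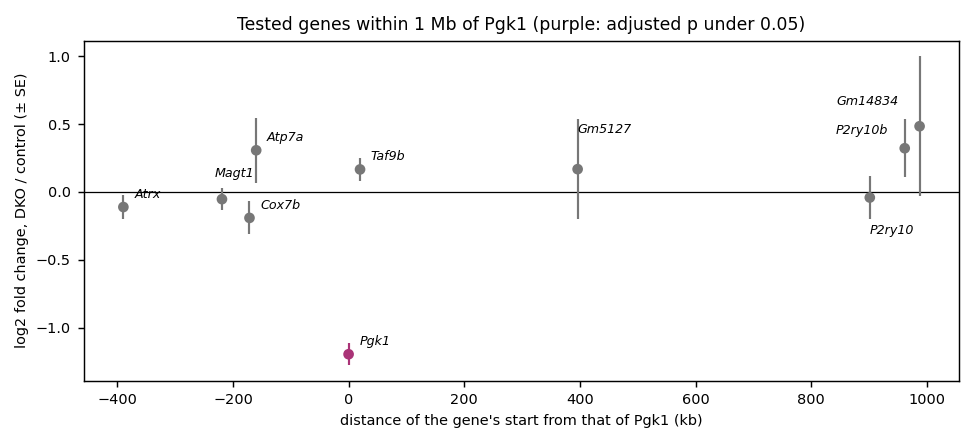
Log2 fold change (DKO minus control, vertical axis) of Pgk1 and the 9 tested genes that start within 1 Mb of it, against the distance of their starts from that of Pgk1 in kilobases (horizontal axis). Points are edgeR estimates with ± SE; Pgk1, in purple, lies at -1.20 and its neighbours between -0.19 and 0.48.

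Phosphoglycerate mutase moves the phosphate that enolase then uses. Bpgm, the bisphosphoglycerate mutase best known from red cells, averaged 18.5 ± 3.36 CPM in control and 18.4 ± 1.68 in DKO (interval of the log2 fold change -0.32 to 0.31). The erythroid and platelet marker list summed to 6.88 to 36.1 CPM in control and 10.3 to 35.7 CPM in DKO, so its ranges overlapped.

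Of the enolase genes, Eno1, the ubiquitous alpha form, averaged 489.6 ± 55.4 CPM in control and 453 ± 31.4 in DKO (log2 change -0.11, SE 0.09, adjusted p 0.588). Eno3 (ENSMUSG00000060600.15, a protein-coding gene, chromosome 11, plus strand, 70657202 to 70662513), the muscle-type beta form, was at 8.50, 7.27, 7.54 and 7.26 CPM in control and at 5.97, 4.57, 5.38, 4.75 and 4.51 CPM in DKO. All DKO libraries lay below all control libraries. The log2 change was -0.60 (SE 0.14, adjusted p 0.0392). That call was close to the threshold: it held in 7 of 16 alternatives, and was lost when any single library other than control replicate 1 was left out (adjusted p 0.053 to 0.0908), with log2 fold changes from -0.67 to -0.57. None of the 50-base words of Eno3 occurs in another annotated gene. Eno2, the neuronal gamma form, was at 0.206 ± 0.188 and 0.311 ± 0.178 CPM, and its interval (-1.13 to 2.31) shows that a change of 2-fold either way was not detectable at this depth. The sum of the myeloid list, which Ctss, Itgam and Cd68 make up for the most part, was lower in DKO and the sum of the cell cycle list higher, as given above. Lyz2 and Csf1r of the myeloid list went the other way on average. The part of these lists in the values of Eno3, Aldoc and Hk3 was not tested.

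The last step of glycolysis and the turnover of lactate rest on single dominant genes. Pkm, which encodes pyruvate kinase of muscle and dividing cells, averaged 505 ± 27.6 CPM in control and 499 ± 34.6 in DKO (interval -0.20 to 0.16). Gene counts do not separate its splice forms. Ldha, which encodes the lactate dehydrogenase subunit that favours lactate, was at 751 ± 53.6 and 710.2 ± 34.9 CPM (log2 change -0.08, SE 0.07, adjusted p 0.636). Ldhb, the heart-type subunit, was at 1.30 ± 0.348 and 1.13 ± 0.162 CPM, so that Ldha made up 99.6% of lactate dehydrogenase RNA per kilobase in control and 99.7% in DKO. Slc16a3, which encodes the lactate exporter MCT4, was at 9.22 ± 0.773 and 10.5 ± 1.38 CPM (log2 change 0.19, SE 0.13, adjusted p 0.525). The gluconeogenic phosphatase genes were close to absent: Fbp1 reached 0.243 CPM in control replicate 3 and 0.148 CPM in DKO replicate 5 and was at or below 0.0206 CPM elsewhere. Fbp2 had counts only in DKO replicate 4 (0.0585 CPM). The 0 counts of the control libraries together allow up to 0.0145 CPM.

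Most pentose phosphate genes had small estimated differences between the groups. The intervals of the log2 fold change were wide for Rpia (-1.32 to 0.23) and H6pd (-0.55 to 0.58). Of 8 members, 0 passed (2.83% of all tested genes), 0 had an unadjusted p under 0.05 (16.0% of all) and 0 had groups that did not overlap (8.71% of all), and with so few genes these counts are near the background. DESeq2 and limma-voom also called 0 of them. The median size of their log2 fold change was 0.03. In the oxidative branch, which makes NADPH, G6pdx, the gene of the entry enzyme, averaged 88.7 ± 8.46 CPM in control and 96.0 ± 3.66 in DKO (interval -0.08 to 0.31). Pgls, the lactonase gene, was at 64.2 ± 8.79 and 60.3 ± 3.29 CPM, and Pgd, the gene of the second NADPH-making enzyme, at 77.6 ± 7.36 and 79.5 ± 3.63 CPM. H6pd, whose enzyme does the first reactions inside the endoplasmic reticulum, was at 31.5 ± 11.6 and 31.8 ± 4.70 CPM, and its wide control spread came from 15 CPM in replicate 1 against 32.7 to 41.6 CPM in the others.

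In the non-oxidative branch, which swaps carbons between ribose and glycolytic sugars, Taldo1, the transaldolase gene, averaged 264 ± 47.8 CPM in control and 265 ± 17.2 in DKO. Tkt, the transketolase gene, was at 169 ± 4.14 and 168 ± 7.48 CPM, with an interval of the log2 fold change from -0.17 to 0.14. Rpe, an epimerase gene, was at 77.9 ± 6.97 and 76.5 ± 6.21 CPM. Rpia, the ribose-phosphate isomerase gene, was low, at 3.90, 1.87, 2.15 and 1.49 CPM in control and 1.11, 1.44, 1.91, 2.46 and 1.12 CPM in DKO. Its log2 fold change of -0.55 had an SE of 0.33 (adjusted p 0.454), and control replicate 1 held the high value.

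The levels of the set spanned a wide range. Per kilobase of exon, Ldha led with 227 CPM per kilobase in control and 215 in DKO, followed by Aldoa (148 and 148), Taldo1 (121 and 122), Pkm (101 and 99.7), Eno1 (91.0 and 84.2) and Gapdh (56.1 and 65.6). The order of these 6 was the same in the 2 groups, although Pkm and Eno1 in control differed by less than the SD of Eno1 over libraries (10.3). Hk1, at 28.9 and 32.1 CPM per kilobase, stood well below these 6. The order within the 6, which genes make up the 6 and the distance to Hk1 depend on the length used. Eno1 has 5379 bases of exon and a longest transcript of 2027 bases, against 2171 and 1362 bases for Taldo1. With the longest transcript as the length, Eno1 and Pkm would stand above Taldo1 in both groups. Pfkp (13401 bases of exon, longest transcript 8681) would then stand above Gapdh (4133 and 3289 bases) in control but not in DKO. Hk1 (8532 and 4278 bases) would stand nearer to Gapdh. The sum over the glycolysis and lactate members was 930.2 ± 33.8 CPM per kilobase in control and 883 ± 31.6 in DKO, and its ranges overlapped. The sum over the pentose phosphate members was 234 ± 19.0 and 236 ± 6.35 CPM per kilobase. Within the enolase trio the share of Eno3 was 4.34 to 5.03% in control and 2.78 to 3.68% in DKO. With the longest transcript in place of all exons as the length, its mean shares were 1.99% and 1.42%, so the share depends on the length used while its order between groups does not.

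**Figure D4:**
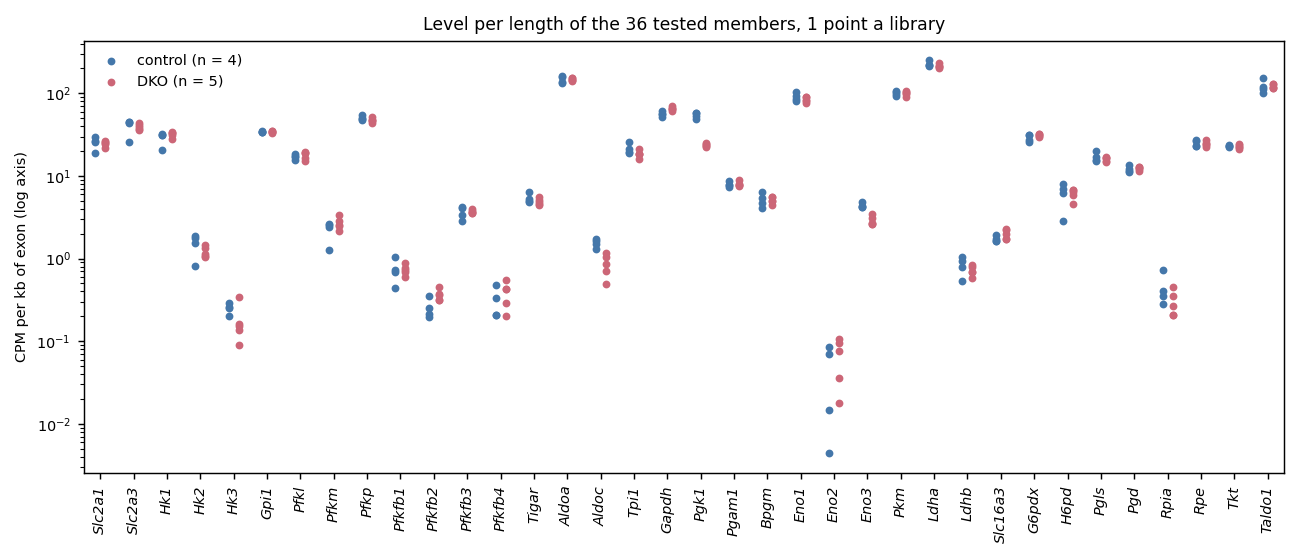
Level in CPM per kilobase of exon (vertical axis, log scale) of the 36 tested members in pathway order (horizontal axis). Each point is a library, control in blue and DKO in red; Ldha is the highest member, with means of 227 and 215, and the groups lie apart for Pgk1, with means of 54.5 and 23.8.

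Control replicate 1 deserves its own account, because it set the spread of several members. Its reads were unmapped in 16.7% of cases, against 10.3 to 12.3% in the other libraries. Over 11466 genes with a mean of at least 1 CPM, its deviation from the other controls (log2 of CPM plus 0.5) fell with transcript length, with a Spearman correlation of -0.60, and over 34 members the value was -0.56. Over all genes the DKO libraries had values between -0.19 and 0.16. Control replicates 2, 3 and 4 had 0.43, 0.48 and 0.22, but each was set against libraries that include control replicate 1. In control replicate 1, the 8 members with a longest transcript under 2000 bases had a median deviation of 0.20. The 8 members of at least 4000 bases had one of -0.52. H6pd (-1.27), Hk2 (-1.0), Pfkm (-0.93), Slc2a3 (-0.78), Pfkfb1 (-0.71) and Hk1 (-0.60) were the 6 lowest members, and Rpia (0.92) and Taldo1 (0.46) the 2 highest. Pgk1, at 1825 bases, deviated by -0.21, and without this library its log2 fold change was -1.26. The correlations are descriptions, since genes of a library share its preparation, and they were computed after the data had been seen.

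**Figure D5:**
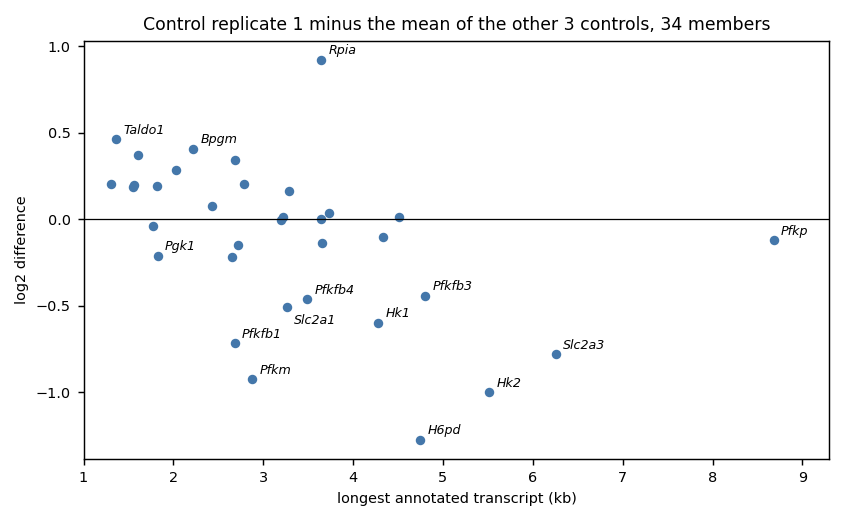
Deviation of control replicate 1 from the other control libraries (log2 difference, vertical axis) against the longest annotated transcript in kilobases (horizontal axis) for 34 members. Points are genes; short members lie mostly above 0 and long members mostly below it, with H6pd lowest at -1.27 and Rpia highest at 0.92.

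A further list of 83 genes around these pathways was looked at in the same fit. It held other transporters and isozymes, lactate and pyruvate carriers, glycogen and ribose enzymes, NADH shuttles, and regulators and targets of the hypoxia response. Of these, 59 were tested and 2 passed (3.39%), 1 higher and 1 lower, which is near the share of all tested genes. Tktl1 (ENSMUSG00000031397.11, plus strand of chromosome X, 74177259 to 74208500), a transketolase-like gene, was at 10.2, 8.15, 6.59 and 7.77 CPM in control and at 19.4, 22.2, 20.8, 18.8 and 14.5 CPM in DKO. All DKO libraries were above all control libraries, and the log2 change of 1.23 (SE 0.16, adjusted p 0.00289) passed in 16 of 16 alternatives. Pgm1 (ENSMUSG00000025791.18, plus strand of chromosome 4, 99929414 to 99987294), which this annotation gives as the symbol of a phosphoglucomutase gene, was at 42.2, 36.9, 38.9 and 47.1 CPM in control and at 32.1, 31.1, 31.8, 26.7 and 29.4 CPM in DKO. The groups did not overlap, and the log2 fold change was -0.45 (SE 0.10, adjusted p 0.0353). Like that of Eno3 the call was close to the threshold: it held in 9 of 16 alternatives and was lost without control replicate 4 or any single DKO library (adjusted p 0.0672 to 0.102).

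Of 25 tested regulators and hypoxia-response genes, 0 passed in the main edgeR test. Vhl passed in 4 of 16 alternatives, DESeq2 and limma-voom among them. Ddit4 passed in 1 of 16, a fit with a library left out (adjusted p 0.0384). An unadjusted p under 0.05 in the main test was reached by 4 of the 25 (16.0%). That is the share seen over all tested genes (16.0%), so their values are given as a description. Vhl, whose product marks hypoxia-inducible factors for destruction, averaged 55.5 ± 1.24 CPM in control and 66.0 ± 2.95 in DKO without overlap (log2 change 0.25, SE 0.07, adjusted p 0.10), and its adjusted p was 0.456 with the replicate block and between 0.00382 and 0.235 in the remaining 16 alternatives. Txnip, a glucose-responsive gene whose product restrains glucose uptake, was at 618 ± 75.4 and 770.0 ± 112 CPM (log2 change 0.32, SE 0.12, adjusted p 0.225). Pdk1, which encodes a kinase that shuts pyruvate dehydrogenase and is a hypoxia-response gene, was at 38.6 ± 4.29 and 31.4 ± 4.13 CPM (log2 change -0.30, SE 0.12, adjusted p 0.23). Bnip3, another hypoxia-response gene, was low, at 1.25 ± 0.471 and 0.754 ± 0.0550 CPM (log2 change -0.73, adjusted p 0.233). Counted by strand it had 2.31 times as many reads, and the added reads cannot be assigned between overlapping genes either. Of the 12 tested hypoxia-response genes outside glycolysis, 5 had a log2 fold change above 0 and 7 below, with a median of -0.12. Prps2, which makes the activated ribose of nucleotide synthesis, was at 61.6 ± 15.5 and 48.1 ± 2.86 CPM (log2 change -0.36, adjusted p 0.279; past the threshold in 3 of 16 alternatives), and G6pc3, a glucose-6-phosphatase gene, at 15.9 ± 1.41 and 13.3 ± 1.11 CPM (log2 change -0.26, adjusted p 0.27). None of the 6 tested lactate and pyruvate carrier genes, the 7 tested transporters and paralogues or the 4 tested NADH shuttle genes had an unadjusted p under 0.05, which over groups this small is near the 16.0% of all tested genes.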

How the data were processed

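Per the labels' protocols, polyA RNA came from RNeasy extraction, and SMART-Seq v4 with Nextera Flex gave the libraries. The submitters' processing notes name Trim Galore 0.6.0, STAR 2.7.8a and the build mm10. The authors deposited raw counts per gene, 1 file per library, in STAR's layout of uniquely mapped reads. The unstranded column was used, because the kit does not mark strand; it leaves out reads where genes overlap. Of 55471 identifiers, 55230 matched GENCODE M21 (GRCm38) without version, and 54573 with it. Aldoa has 2 gene records there, and the larger was used. Reads outside genes were not used: unmapped 10.3 to 16.7%, multimapping 5.8 to 6.79%, no feature 4.01 to 5.2% and ambiguous 4.97 to 5.31% of reads.

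The main test was the robust quasi-likelihood F-test of edgeR 4.0.16 (R 4.3.3; TMM factors 0.987 to 1.03). filterByExpr kept genes (minimum count 10, minimum total 15). The SE is the log2 fold change divided by the root of F, and 95% intervals use 7 residual degrees of freedom. A group's floor is 3 counts (0.0145 CPM in control, 0.0117 CPM in DKO), which covers counting error only, as the libraries have no molecular identifiers. The alternatives were DESeq2 size factors, the DESeq2 1.42.0 Wald test, limma-voom 3.58.1 with quality weights, no filter, a filter of 1 CPM in 4 libraries, summed strand columns, a replicate block, 1 surrogate variable (sva 3.50.0) and each library left out, 17 in all, or 16 without the block, over which counts and ranges of alternatives are given. DESeq2 gave no adjusted p for Eno2. On simulated data (200 of 14918 genes changed 2-fold, DKO against control), edgeR called 66.5% with 5.67% false calls, DESeq2 74.5% with 17.7% and limma-voom 66% with 7.04%. Promoter and word searches and figures used Python 3.11.15, numpy 2.4.6, pandas 2.3.3, scipy 1.17.1 and matplotlib 3.10.9.

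The members and lists were chosen with earlier results of these data known. Named were all members, with full statistics for those past the threshold, without overlap, with an unadjusted p under 0.05 or highest per length in their step. Genes of the further list were named by the same criteria apart from level, with Ddit4 and Bsg added. Other cell markers also looked at were B cell genes (180 to 265 CPM in control, 187 to 210.1 CPM in DKO), CD4 T cell genes (30.7 to 39.3 and 34.6 to 46.6 CPM) and NK cell genes (1707 to 1999 and 1460 to 1814 CPM). A chi-square comparison of counts found no library deposited a second time.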

Additional observations from a re-analysis of the deposited data

Results flagged for a closer look

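Single libraries far from the rest of their group were sought among 73 groups of values, and chance marks about 1 in 20 such groups. There were 5, of which 3 were in control replicate 1. In that library Slc2a3 was at 187 CPM against 314 to 329 CPM in the other controls, Hk1 at 178 CPM against 266 to 276 CPM, and Pfkm at 4.23 CPM against 8.11 to 8.80 CPM. Hk3, the myeloid-type hexokinase gene, was at 1.25 CPM in DKO replicate 1 and at 0.331 to 0.589 CPM in the other DKO libraries. Fbp1 was at 0.243 CPM in control replicate 3 and at 0 to 0.0206 CPM in the other controls.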

How the results depend on the processing

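Among all genes, 422 passed in the test used, and 1248 passed with 1 surrogate variable, 1038 in DESeq2, 996 in limma-voom, 67 with a replicate block, and 179 (without DKO replicate 1) to 749 (without control replicate 1) when 1 library was left out. Of the members, 2 passed in the test used, 4 in limma-voom, 1 without the low-count filter, 1 with the replicate block and 1 to 3 with a library left out, 3 without control replicate 1. Of the further list, 2 passed in the test used, 5 with 1 surrogate variable, 4 in limma-voom, 1 without the filter, 1 with the replicate block and 1 to 4 with a library left out, 4 without control replicate 1. Pfkfb1 turned to -0.24 in limma-voom (adjusted p 0.533) and H6pd to -0.23 without control replicate 1 (adjusted p 0.346; up to 0.175 without control replicate 3), and neither passed anywhere. The label numbers do not pair the libraries: the correlations of same-numbered deviations were -0.05, -0.01, 0.01 and -0.12. With the block by label number Pgk1 kept -1.20 (adjusted p 0.00757) and Tktl1 passed, while Eno3 (adjusted p 0.225) and Pgm1 (0.266) did not. Under the alternatives, 712 log2 fold changes of single genes stayed on the same side of the threshold. No gene that passed changed sign among them. Another 12 passed newly, 18 no longer passed and 2, named above, were marked as turned. Smaller changes of sign around 0 are among the 712. Over 16 alternatives, Slc2a1 ran from -0.17 to 0.05 and Pfkfb3 from -0.08 to 0.11. Of the isozyme shares, 91 moved by less than 1 SD between libraries and 13 by more. Shared words limit Pgk1, Pgam1, Eno1, Pkm and Gapdh to part of their sequence, and depth limits Eno2, Fbp1 and Fbp2.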
